A study of Mus musculus with 10 samples.

Results

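The genes described here carry acetylcholine through its life in the nerve terminal, from synthesis and packaging to breakdown and the recovery of choline. In all, 9 symbols were chosen by that role, and all 9 were present among the 32531 gene symbols counted: Chat, Slc18a3, Slc10a4, Slc5a7, Slc44a1, Ache, Prima1, Bche and Colq. RNA bound to tagged ribosomes was purified from the whole striatum of adult mice of the Chat-TRAP line DW167. All mice carry the Chat-EGFP/Rpl10a transgene, which puts a green fluorescent protein on ribosomal protein L10a in cells where Chat regulatory sequence is active. The immunopurified libraries came from mice in cocaine self-administration (3 libraries), yoked controls (3 libraries) and mice in saline self-administration (3 libraries). The input, 1 library, held striatal RNA of saline mice that was not purified. Neither the sex of the mice nor the number of animals behind a library is given in the labels, and they do not say what the yoked mice received.

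Choline acetyltransferase (Chat) joins choline to acetyl-CoA in the cytosol, and the vesicular acetylcholine transporter (Slc18a3) exchanges the product for protons to load it into synaptic vesicles. After release, acetylcholinesterase (Ache) splits acetylcholine in the synaptic cleft, where in brain the membrane protein Prima1 anchors it, and the high-affinity choline transporter (Slc5a7) returns the choline to the terminal. Cholinergic interneurons are a small minority of striatal neurons, yet their axons supply most of the acetylcholine of this tissue.

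In purified RNA of saline mice, Chat, the vesicle transporters Slc18a3 and Slc10a4, the choline transporter Slc5a7, Ache and its anchor Prima1 were 23.5-fold to 104-fold above the striatal input, while Slc44a1 and Bche lay below it. Between cocaine, yoked and saline mice 0 of the 8 genes that could be tested passed the test, and neither did any other of the 14989 genes tested. The spread among libraries was uneven: Chat varied little within groups, and Slc18a3, which shares its locus, varied more than nearly all genes of at least 100 CPM (counts per 1000000 reads assigned to genes).

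Reads assigned to genes numbered 24526765 to 75220922 per purified library, with cocaine library 2 the deepest, and 40912230 in the input. The label was checked on 10 markers of cholinergic neurons outside the 9 genes. Of these, 9 had at least 20 reads in the input, and all 9 were at least 4-fold above it in all 3 saline libraries. The other, Gbx2, had 1 input read and was measured only through its reads in purified RNA. The summed level of the 10 markers was 2214 to 2757 CPM in the 9 purified libraries against 75.9 CPM in the input. The 14 markers of spiny projection neurons and the 11 of oligodendrocytes were all below the input, with median log2 ratios of −3.23 and −3.30. They were not absent from purified RNA: the spiny neuron markers summed to 794 to 1865 CPM, against 9691 CPM in the input. Saline libraries were sequenced in lane 3, cocaine and yoked libraries in lane 4 and the input in lane 5 by the sample descriptions, so lane cannot be told apart from group wherever saline or input libraries are compared.

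The promoters of 2 pairs of genes are printed because the pairs behave in opposite ways below. Chat and Slc18a3 lie at 1 locus and differed in pattern, and Slc5a7 and Slc10a4 lie on different chromosomes and were the pair most alike. Chat spans chr14:32408203-32465909 on the minus strand (GRCm38.p6), and Slc18a3 spans chr14:32462437-32464850 on the same strand, inside the Chat interval, with annotated starts 1059 bases apart. Slc5a7 is at chr17:54273590-54299038 on the minus strand and Slc10a4 at chr5:73006904-73012955 on the plus strand. Each window, from RefSeq on build GRCm38.p6, runs 5′ to 3′ from 250 bases before the start given in the promoter table to 50 bases after it, and that start need not be the end of the gene interval (for Slc5a7 it is not). Capitals mark every match, on either strand, to the 4 motifs described after the sequences.
Chat (chr14:32465860-32466159, minus strand): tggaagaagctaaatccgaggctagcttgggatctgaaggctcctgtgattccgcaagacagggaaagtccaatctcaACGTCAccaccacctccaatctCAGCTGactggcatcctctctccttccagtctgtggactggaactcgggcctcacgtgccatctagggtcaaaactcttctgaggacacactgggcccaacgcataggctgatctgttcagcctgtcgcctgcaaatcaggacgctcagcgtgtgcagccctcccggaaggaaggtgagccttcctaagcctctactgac
Slc18a3 (chr14:32464801-32465100, minus strand): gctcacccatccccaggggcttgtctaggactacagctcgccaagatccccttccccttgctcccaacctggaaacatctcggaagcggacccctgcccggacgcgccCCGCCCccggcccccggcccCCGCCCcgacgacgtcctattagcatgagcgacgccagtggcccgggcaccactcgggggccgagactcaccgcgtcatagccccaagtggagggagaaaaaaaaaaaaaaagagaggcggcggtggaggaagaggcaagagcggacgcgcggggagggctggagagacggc
Slc5a7 (chr17:54298985-54299284, minus strand): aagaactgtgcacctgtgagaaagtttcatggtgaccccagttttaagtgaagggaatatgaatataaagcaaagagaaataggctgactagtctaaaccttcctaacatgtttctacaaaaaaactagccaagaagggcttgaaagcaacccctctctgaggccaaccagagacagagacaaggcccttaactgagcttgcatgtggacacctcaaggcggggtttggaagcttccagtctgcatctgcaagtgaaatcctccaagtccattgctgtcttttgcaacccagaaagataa
Slc10a4 (chr5:73006654-73006953, plus strand): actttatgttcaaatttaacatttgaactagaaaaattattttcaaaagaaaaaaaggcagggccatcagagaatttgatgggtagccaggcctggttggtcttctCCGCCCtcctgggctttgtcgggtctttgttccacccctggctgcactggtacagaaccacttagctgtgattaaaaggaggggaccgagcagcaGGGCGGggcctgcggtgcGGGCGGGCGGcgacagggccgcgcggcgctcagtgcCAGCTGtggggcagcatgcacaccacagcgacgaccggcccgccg

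The motifs searched were GGGCGG, the GC box of Sp1-type factors, with CCGCCC on the other strand; TGACGT, the core of the cyclic AMP response element, with ACGTCA on the other strand; CAGCTG, an E-box; and TAATTA, a homeodomain core. The Chat window held 1 match to the cyclic AMP element core and 1 E-box. The Slc18a3 window held 2 GC boxes. The Slc10a4 window held 4 GC boxes, 2 of them sharing bases, and 1 E-box, and the Slc5a7 window held none of the 4 motifs. Of all 32851 mouse promoter windows, 35.7% held the GC box, 7.51% the cyclic AMP element core, 16.3% the E-box and 5.29% the homeodomain core. The base composition of the 4 windows differed widely, with a GC content of 67.0% for Slc18a3, 57.3% for Slc10a4, 55.7% for Chat and 44.7% for Slc5a7. Windows were available for 8 of the 9 genes, all but Colq.

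Purified RNA of saline mice was first set against the input, to ask which of these transcripts the tagged ribosomes carried in excess of the tissue. In all, 8 genes had at least 20 counts in the input or on average in the saline libraries and so could be measured, as could 15888 genes in all. Each of the 8 had at least 329 reads in the input. The input is 1 library, so each ratio has the spread of its 3 saline libraries and a counting interval, and no test. Of the 8 genes, 6 were at least 4-fold higher than the input in all 3 saline libraries, against 3.62% of all measured genes. The median log2 ratio was 5.03 over the 8 genes and −0.20 over all measured genes.

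**Figure D1:**
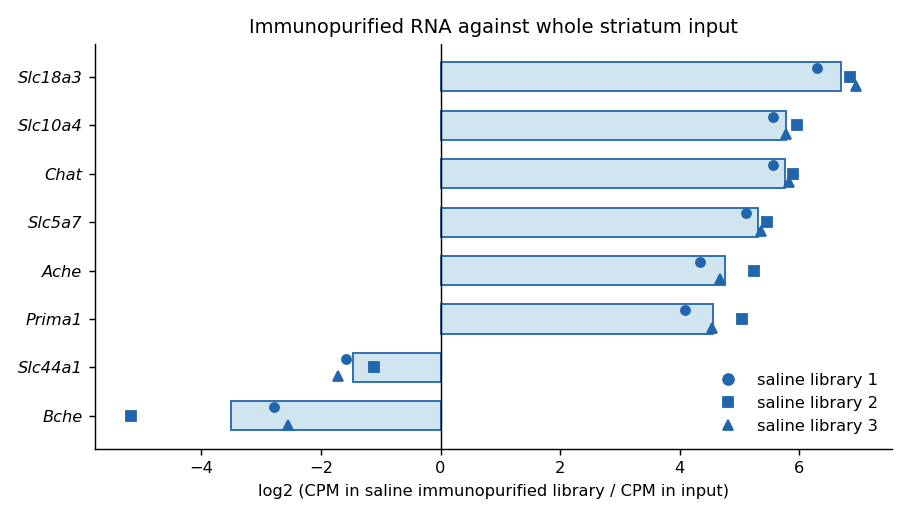
Log2 ratio of CPM in each saline immunopurified library to the input, for the 8 acetylcholine genes measured; bars are the mean of 3 libraries and symbols the libraries. The 6 upper genes lie between 4.56 and 6.70 on average, Slc44a1 at −1.47 and Bche at −3.50.

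Slc18a3 had the highest ratio of the 9 genes. It measured 656, 959.7 and 1036 CPM in saline libraries 1, 2 and 3, against 8.36 CPM (342 reads) in the input, a 104-fold difference with a log2 ratio of 6.70 ± 0.35 (SD, n = 3). With the reads of the 3 libraries pooled, the ratio's 95% counting interval was 98.3 to 122. Only 44 of the 15888 measured genes had a higher mean ratio. Slc10a4, an orphan carrier of the bile acid transporter family that sits on synaptic vesicles of cholinergic and monoaminergic neurons, came next among the 9 with a log2 ratio of 5.77 ± 0.20, or 54.7-fold. Chat followed at 5.76 ± 0.18, or 54.2-fold, and these 2 ratios differed by less than the spread between libraries.

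Slc5a7 was 39.6-fold above the input, at a log2 ratio of 5.31 ± 0.18. Ache was 27.0-fold above it at 4.75 ± 0.46. Prima1 was 23.5-fold above it at 4.56 ± 0.47. The ratios of Ache and Prima1 overlapped between libraries and varied more than those of Chat, Slc10a4 and Slc5a7, and in both genes saline library 2 was the highest and saline library 1 the lowest.

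Slc44a1, a choline transporter-like protein found in many cell types, went the other way. It measured 24.7, 34.02 and 22.4 CPM in the saline libraries, all below the 73.7 CPM of the input, a 2.77-fold lower level with a log2 ratio of −1.47 ± 0.32. Bche, the butyrylcholinesterase that also splits acetylcholine, measured 1.17, 0.223 and 1.38 CPM, against 8.04 CPM (329 reads) in the input. Its mean log2 ratio was −3.50 ± 1.45, or 11.3-fold lower, and saline library 2 held only 7 reads. With the reads pooled, the Bche ratio was 0.119 with a 95% counting interval of 0.0938 to 0.150. Both genes were lower than the input in all 3 libraries, as were 44.9% of all measured genes, and Bche was at least 4-fold lower in all 3, as were 12.9%.

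Colq encodes the collagen tail that fixes acetylcholinesterase at the neuromuscular junction. It had 0, 1 and 2 reads in the saline libraries and 10 reads in the input, too few for a ratio. Its highest count in any purified library was 11 reads in cocaine library 2, the deepest library, and the highest level of Colq, 0.305 CPM, was in cocaine library 3 (95% exact Poisson interval 0.140 to 0.579).

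The treatment groups were then compared, with edgeR's quasi-likelihood test over the 14989 genes that passed a filter on low counts. Of the 9 genes, 8 passed it, and Colq did not. After Benjamini-Hochberg adjustment edgeR called 0 of the 14989 genes (0%) in each comparison, and the smallest adjusted p was 0.850 between cocaine and saline mice, 0.9997 between cocaine and yoked mice and 0.999 between yoked and saline mice. DESeq2 also called 0 genes in each. At an unadjusted p under 0.05, edgeR found 0 of the 8 acetylcholine genes in each comparison, where it found 5.28% of all tested genes between cocaine and saline mice, 2.61% between cocaine and yoked mice and 2.18% between yoked and saline mice. Groups overlapped for each of the 8 genes in each comparison; the share of all tested genes without overlap was 10.3%, 6.78% and 7.05% in the same order. The labels do not say whether libraries came from separate animals, so these p-values measure the spread between libraries only. In bulk RNA, fewer cells of a type and less RNA per cell cannot be told apart.

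**Figure D2:**
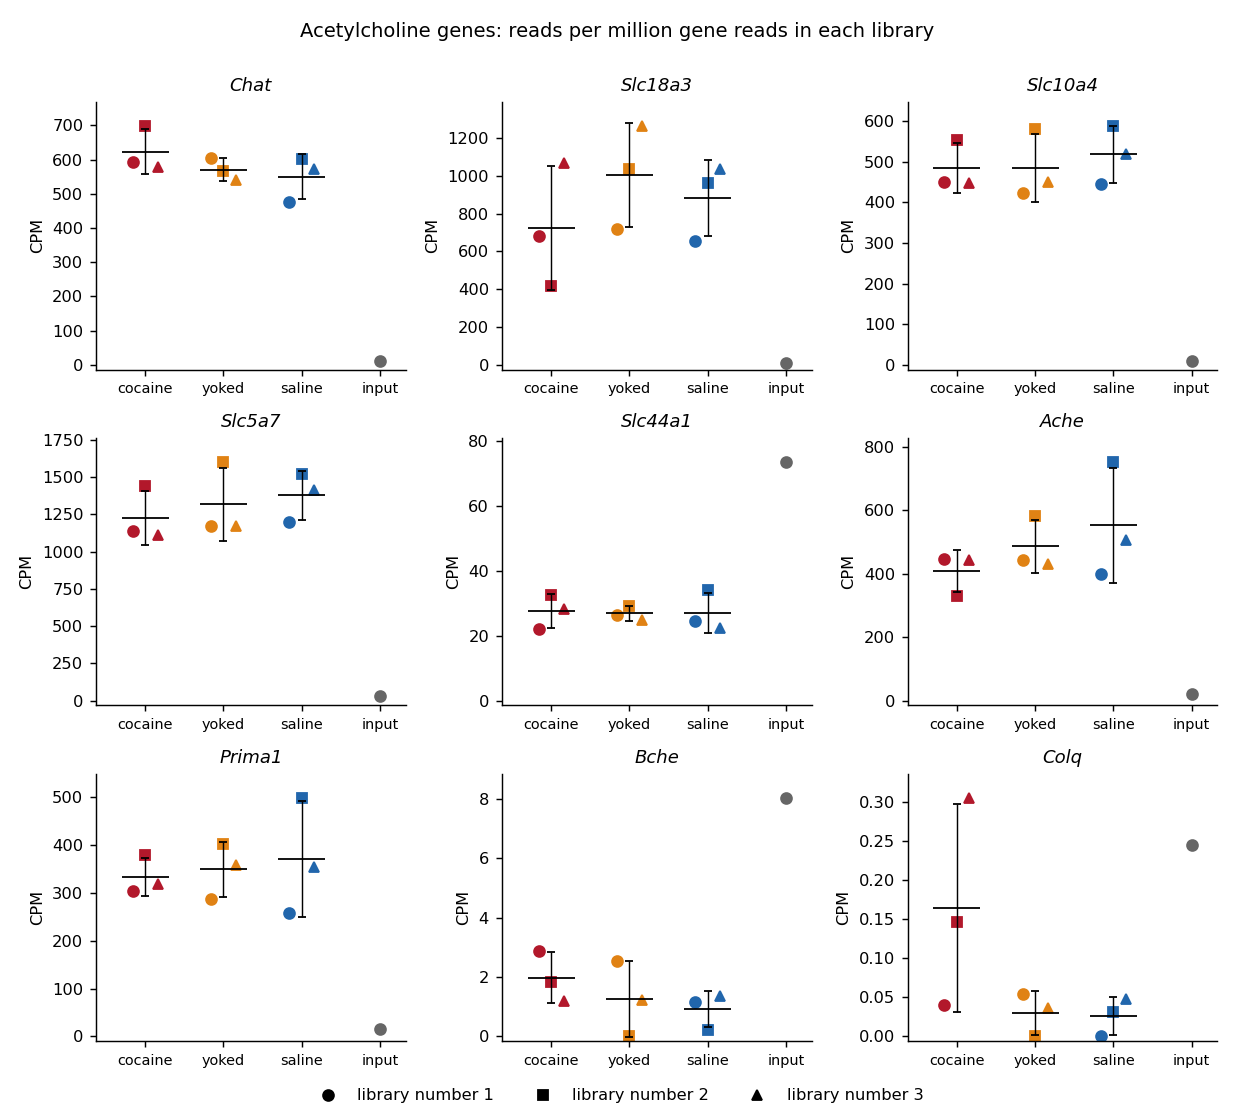
CPM of each of the 9 genes in every library, with a panel and a linear axis of its own per gene; lines are the group mean and bars the SD of 3 libraries, and symbols give the library number. Groups overlap in all panels, Slc18a3 is widest in cocaine mice (419 to 1068 CPM), and Slc44a1 and Bche are highest in the input.

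Chat, the synthesising enzyme, measured 593, 698 and 577 CPM in cocaine libraries 1 to 3, 606, 566 and 539 CPM in yoked libraries 1 to 3, and 477, 601 and 573 CPM in saline libraries 1 to 3. The highest value was cocaine library 2 and the lowest saline library 1, and the other 7 lay between 539 and 606 CPM. Chat averaged 623 ± 65.7 CPM in cocaine mice, 570 ± 33.7 CPM in yoked mice and 550 ± 65.1 CPM in saline mice (SD, n = 3 each). The log2 fold change of cocaine over saline was 0.20 ± 0.16 (SE), with a 95% interval of −0.15 to 0.55, which as a fold is 0.902 to 1.46 (edgeR, adjusted p = 0.878). That of cocaine over yoked was 0.16 (−0.18 to 0.51), and that of yoked over saline 0.034 (−0.31 to 0.38).

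Slc18a3, the vesicle loader, measured 683, 419 and 1068 CPM in cocaine libraries, 717, 1035 and 1264 CPM in yoked libraries, and 656, 959.7 and 1036 CPM in saline libraries. Library 3 was the highest of its group in all 3 groups, as for 4.26% of all tested genes. Library 1 was the lowest in yoked and saline mice, but in cocaine mice the lowest was library 2, at 419 CPM the lowest of all 9. Slc18a3 averaged 724 ± 326 CPM in cocaine mice, 1005 ± 275 CPM in yoked mice and 884 ± 201 CPM in saline mice.

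Its log2 fold change was −0.45 ± 0.29 for cocaine over yoked, with a 95% interval of −1.07 to 0.16 (edgeR, adjusted p = 0.9997, or 0.137 before adjustment), and −0.29 ± 0.29 for cocaine over saline (−0.90 to 0.33). For yoked over saline it was 0.16 (−0.45 to 0.78). The labels do not pair libraries of the same number, but the difference between cocaine and saline was largest between those numbered 2. Cocaine library 2 was low (419 CPM), while saline library 2 was the middle of its group (959.7 CPM). With 1 library left out at a time, the log2 fold change of cocaine over saline lay between −0.65 and −0.015. Within number 2 the log2 difference of cocaine and saline was −1.20, and within numbers 1 and 3 it was 0.060 and 0.044. Without the 3 libraries of number 2 the log2 fold change of cocaine over saline was 0.033. The difference between cocaine and yoked was also largest between the libraries numbered 2, at −1.30, with −0.069 within number 1 and −0.24 within number 3. The cocaine over yoked fold change was −0.19 without cocaine library 2, −0.23 without yoked library 3, −0.82 without cocaine library 3 and −0.20 without the 3 libraries of number 2.

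Slc10a4, the other vesicle protein, measured 449.55, 555 and 448 CPM in cocaine libraries, 423, 581 and 449.65 CPM in yoked libraries and 446, 588 and 519.7 CPM in saline libraries. Means were 484 ± 61.2 CPM in cocaine mice, 484 ± 84.6 CPM in yoked mice and 518 ± 70.9 CPM in saline mice. The log2 fold changes were −0.077 ± 0.17 for cocaine over saline (−0.45 to 0.30), 0.044 for cocaine over yoked (−0.33 to 0.42) and −0.12 for yoked over saline (−0.49 to 0.25). Library 2 was the highest of each group.

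Slc5a7, which recovers choline and is held to limit the rate of synthesis, measured 1139, 1437 and 1109 CPM in cocaine libraries, 1174, 1602 and 1173 CPM in yoked libraries and 1196, 1517 and 1415 CPM in saline libraries. Library 2 was again the highest in each group, and the other libraries of cocaine and yoked mice lay close together. The means were 1228 ± 181 CPM in cocaine mice, 1316 ± 248 CPM in yoked mice and 1376 ± 164 CPM in saline mice. Cocaine over saline had a log2 fold change of −0.14 ± 0.18 (−0.53 to 0.24, edgeR, adjusted p = 0.927), cocaine over yoked −0.054 and yoked over saline −0.089.

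Slc44a1 measured 22.1, 32.6 and 28.2 CPM in cocaine libraries, 26.5, 29.3 and 24.97 CPM in yoked libraries and 24.7, 34.02 and 22.4 CPM in saline libraries. The 3 groups covered nearly the same range, with means of 27.6 ± 5.28 CPM in cocaine mice, 26.9 ± 2.20 CPM in yoked mice and 27.0 ± 6.16 CPM in saline mice. Its log2 fold change was 0.056 ± 0.22 for cocaine over saline, with an interval of −0.42 to 0.53.

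Ache, which ends the signal, had the smallest p of the 8 genes for cocaine against saline. It measured 447, 331 and 444 CPM in cocaine libraries, 443, 583 and 432 CPM in yoked libraries and 399, 753 and 506 CPM in saline libraries. Cocaine library 2 was the lowest of the 9 and saline library 2 the highest, and saline library 1 lay below cocaine libraries 1 and 3. Ache averaged 407 ± 66.3 CPM in cocaine mice, 486 ± 83.7 CPM in yoked mice and 553 ± 182 CPM in saline mice.

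Cocaine over saline had an Ache log2 fold change of −0.43 ± 0.21, with an interval of −0.88 to 0.027 (edgeR, adjusted p = 0.850, or 0.0635 before adjustment). Cocaine over yoked had −0.22 (−0.67 to 0.23) and yoked over saline −0.21 (−0.66 to 0.25). As with Slc18a3, the difference was largest between the number 2 libraries, which the labels do not pair. The log2 difference of cocaine and saline was −1.19 within number 2, 0.17 within number 1 and −0.19 within number 3. The log2 fold change was −0.15 without saline library 2 and −0.037 without the 3 libraries of number 2.

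Prima1, the membrane anchor of acetylcholinesterase, measured 303, 378 and 317 CPM in cocaine libraries, 287, 401 and 356 CPM in yoked libraries and 258, 498 and 353 CPM in saline libraries. Saline mice had both the lowest and the highest value, and library 2 was the highest in each group. The log2 fold change was −0.13 ± 0.22 for cocaine over saline (−0.59 to 0.33), −0.022 for cocaine over yoked and −0.11 for yoked over saline.

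Bche was thinly covered. It had 71, 139 and 35 reads in cocaine libraries, 140, 0 and 34 reads in yoked libraries and 30, 7 and 58 reads in saline libraries. The 0 in yoked library 2 allows up to 0.0988 CPM (3 reads), and the highest level was 2.89 CPM in cocaine library 1. Group means were 1.98 ± 0.861 CPM in cocaine mice, 1.26 ± 1.27 CPM in yoked mice and 0.924 ± 0.616 CPM in saline mice. The log2 fold change of cocaine over saline had an interval of −1.36 to 3.56 around a fitted value of 1.1. With this spread between libraries its size and direction are undetermined. Colq had 1, 11 and 9 reads in cocaine libraries, 3, 0 and 1 reads in yoked libraries and 0, 1 and 2 reads in saline libraries, and was not tested.

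**Figure D3:**
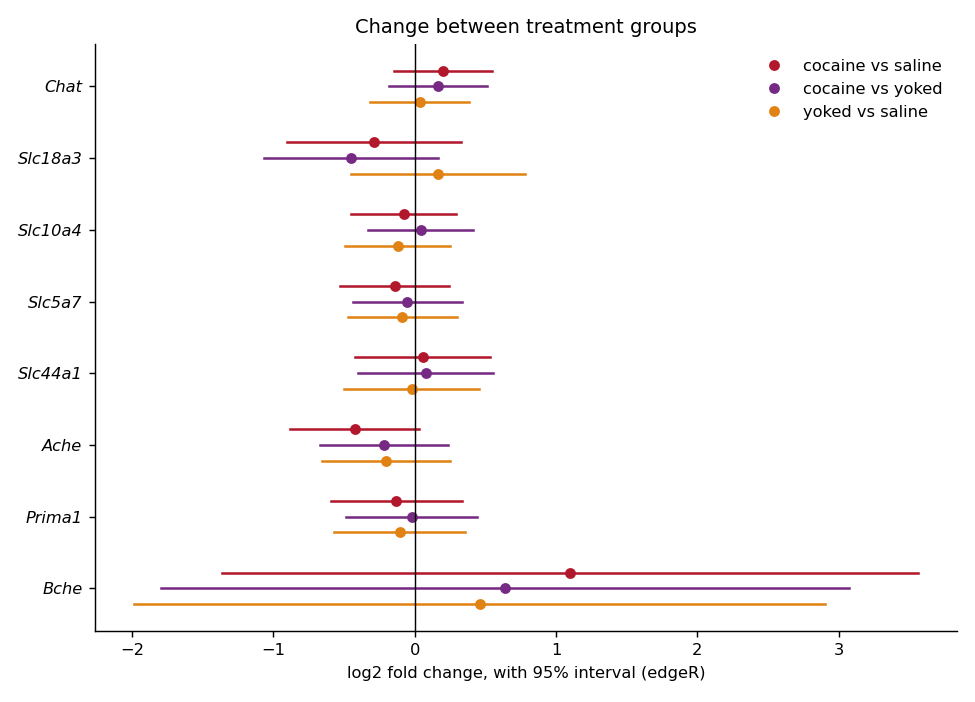
Log2 fold change and 95% interval from edgeR for the 8 genes tested, for cocaine over saline, cocaine over yoked and yoked over saline. All 24 intervals include 0, and that of Bche is the widest (−1.36 to 3.56 for cocaine over saline).

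Over the 8 genes, the median log2 fold change was −0.10 for cocaine over saline, 0.011 for cocaine over yoked and −0.056 for yoked over saline, beside 0.0049, 0.0011 and −0.014 over all tested genes. The test of any difference among the 3 groups gave its smallest member p for Ache, 0.168 by edgeR before adjustment and 0.9995 after it. At p under 0.05 unadjusted it found 0 of the 8 genes and 2.8% of all genes. The comparisons share their cocaine, yoked and saline libraries, so they are not independent of each other.

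The genes differed in how far libraries of 1 group spread. The SD within groups of log2(CPM + 0.5) was 0.14 for Chat and 0.50 for Slc18a3. Among the 2106 tested genes of at least 100 CPM, whose median SD was 0.22, 14.1% had a smaller spread than Chat and 98.1% a smaller spread than Slc18a3. Slc10a4 (0.21) and Slc5a7 (0.22) were close to the median, and Prima1 (0.32) and Ache (0.33) lay above it.

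Of the 8 genes, 4 (Slc5a7, Slc10a4, Prima1 and Slc44a1) were highest in library 2 in each of the 3 groups, against 9.95% of all tested genes. Those libraries also had the least oligodendrocyte signal of their groups: the 11 markers summed to 347 CPM in cocaine library 2, 347 CPM in yoked library 2 and 262 CPM in saline library 2, and to 286 to 615 CPM in the other purified libraries, with none of the 11 at 0. The 10 cholinergic markers were also highest in the same libraries, at 2712 CPM in cocaine library 2, 2757 CPM in yoked library 2 and 2709.8 CPM in saline library 2, against 2214 to 2494 CPM in the other purified libraries, with none of the 10 at 0. Other lists moved in different ways. The 9 markers of other striatal interneurons were also highest in library 2, at 62.6 CPM in cocaine, 57.4 CPM in yoked and 40.6 CPM in saline mice. Microglia markers were lowest in library 2 of each group, though in yoked mice by little (28.2 CPM against 28.6 CPM in library 1). Of the 10 microglia markers, 2 were at 0 in cocaine library 2, 3 in yoked library 2 and 3 in saline library 2. Spiny neuron and astrocyte markers were lowest there in cocaine and yoked mice, but in saline mice library 3 was lowest (794 and 310 CPM). Markers of cortical glutamatergic neurons were lowest in library 3 of each group, at 17.5 CPM in cocaine, 7.28 CPM in yoked and 15.2 CPM in saline mice. Markers of oligodendrocyte precursors and of endothelial and mural cells had no common order. Libraries numbered 2 also differed in sequencing, but not all in the same way. Reads that aligned to more than 1 place were 36.4% of reads in saline library 2 and 36.3% in yoked library 2. They were 56.2% in cocaine library 2 and 46.5% to 57.1% in the other purified libraries. The part of any list, or of these shares, in the levels of the 4 genes was not tested.

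Over the 9 purified libraries, the pattern of Slc10a4 was closest to that of Slc5a7, with a root mean square difference of centred log2 values of 0.054. The difference between Chat and Slc18a3, whose promoters are printed beside each other above, was 0.54, the largest for any pair that Chat or Slc18a3 formed with one another or with Slc5a7, Slc10a4 or Prima1. Chat differed from Slc10a4 by 0.18 and from Slc5a7 by 0.20.

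Over all 10 libraries, the input included, each of 4 genes was set against 10240 genes of at least 5 CPM, and the likeness is mostly set by the shared step between input and purified RNA. Nearest to Chat were Ecel1 (0.20), Gm4980 (0.22), Slc17a8 (0.26), Lhx8 (0.26) and Tacr1 (0.27). Slc5a7 had far closer neighbours, among them Gm4980 at 0.071, Tacr1 at 0.11, Tacr3 at 0.13 and Drd5 at 0.15. Among the genes near Slc18a3 were Ecel1 (0.41), AI606473 (0.53) and Popdc3 (0.58), and nearest to Ache were AK049621 (0.16), Gm5868 (0.20, listed at 0 in the input), Bves (0.21), Drd5 (0.21) and Slc25a1 (0.25).

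Ratios of reads within a library remove its depth, and 6 such pairs were compared. Slc18a3 had 1.15, 0.600 and 1.85 reads per Chat read in cocaine libraries, 1.18, 1.83 and 2.35 in yoked libraries, 1.38, 1.60 and 1.81 in saline libraries and 0.828 in the input. All but cocaine library 2 were thus above the input. Slc5a7 had 1.92, 2.06 and 1.92 reads per Chat read in cocaine libraries, 1.94, 2.83 and 2.18 in yoked libraries, 2.51, 2.52 and 2.47 in saline libraries and 3.43 in the input. Cocaine and saline libraries did not overlap, and yoked libraries spanned both.

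**Figure D4:**
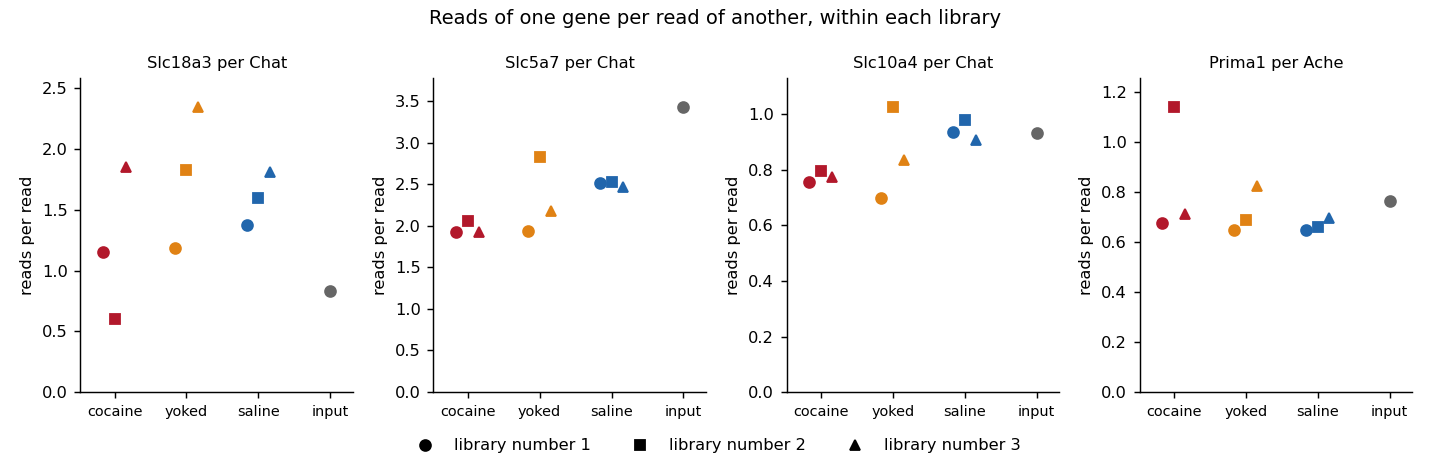
Reads of 1 gene per read of another in every library, for 4 of the 6 pairs; symbols give the library number. Slc5a7 per Chat lies between 1.92 and 2.06 in cocaine mice and between 2.47 and 2.52 in saline mice, and yoked mice spread over both ranges.

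Slc10a4 per Chat behaved alike, at 0.758 to 0.795 in cocaine mice, 0.698 to 1.03 in yoked mice and 0.907 to 0.979 in saline mice. Ache per Chat was 0.474 to 0.770 in cocaine mice, 0.732 to 1.03 in yoked mice and 0.836 to 1.25 in saline mice. These 3 ratios were the only ones of 18 tests (6 pairs in 3 comparisons) without overlap, all lower in cocaine than in saline mice, with differences in mean log2 of −0.35, −0.28 and −0.58. Each had a two-sided exact permutation p of 0.1, the smallest that 3 against 3 libraries allow, and 0.6 after adjustment over the 18, so this design could not reach the threshold of 0.05 for any ratio. Over all tested genes, 12% of such ratios to Chat lay lower in cocaine than in saline mice without overlap and 1.81% higher. The share without overlap in either direction was 7.42% between cocaine and yoked mice and 5.88% between yoked and saline mice. The 3 ratios share the Chat reads as denominator, and Chat itself averaged 623 CPM in cocaine mice against 550 CPM in saline mice.

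Prima1 per Ache, anchor to enzyme, was 0.679, 1.14 and 0.713 in cocaine libraries, 0.647, 0.689 and 0.824 in yoked libraries, 0.647, 0.661 and 0.698 in saline libraries and 0.766 in the input. Cocaine library 2, the library with the least Ache, stood apart from the other 8 purified libraries. The groups overlapped in each comparison; of all genes per Ache read, 9.87% did not overlap between cocaine and saline mice, 8.54% between cocaine and yoked mice and 4.52% between yoked and saline mice. Prima1 per Chat overlapped between groups, at 0.534 ± 0.0197 in cocaine mice, 0.615 ± 0.125 in yoked mice and 0.662 ± 0.149 in saline mice.

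The genes around the cycle were taken from 4 lists with 48 symbols: other choline carriers, acetyl-CoA supply, choline use and release, and the vesicle proton pump with other vesicle proteins. Of these, 46 were in the files and 42 passed the filter. In each of the 3 treatment comparisons 0 of 42 passed edgeR's test after adjustment, as did 0 of all 14989 tested genes. An unadjusted p under 0.05 was found for 2 of the 42 between cocaine and saline mice, beside 5.28% of all tested genes. Between cocaine and yoked mice it was 1 of the 42, beside 2.61%, and between yoked and saline mice 0, beside 2.18%. Against saline, 14 of the 42 lay above 0 and 28 below in cocaine mice, with a median log2 fold change of −0.12 beside 0.0049 over all tested genes. Of all tested genes, 50.6% lay above 0. The imbalance lay mostly in the vesicle list, with 3 above and 14 below. Acetyl-CoA supply had 4 and 6, choline use and release 6 and 6, and other choline carriers 1 and 2. For yoked over saline, 12 lay above 0 and 30 below, with a median of −0.080 beside −0.014, and 47.9% of all tested genes lay above 0. Here the vesicle list had 1 above and 16 below, acetyl-CoA supply 3 and 7, choline use and release 6 and 6, and other choline carriers 2 and 1. For cocaine over yoked, 17 lay above 0 and 25 below, with a median of −0.031 beside 0.0011, and 50.2% of all tested genes lay above 0.

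The smallest p in the 4 lists belonged to Atp6v1g2, a G subunit of the vacuolar proton pump, with 1059 ± 463 CPM in cocaine mice and 685 ± 61.8 CPM in saline mice. Its log2 fold change was 0.66 ± 0.25 (edgeR, adjusted p = 0.850, or 0.0192 before adjustment), and 0.22 without cocaine library 2. Atp6v1h, the H subunit of the same pump, measured 83.8 ± 4.63 CPM in cocaine mice and 113 ± 24.0 CPM in saline mice, without overlap. Its log2 fold change was −0.41 ± 0.18 (adjusted p = 0.850 by edgeR). Of the 42 genes, 2 lay higher and 3 lower in cocaine than in saline mice without overlap, beside 4.88% and 5.4% of all tested genes.

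Citrate synthase (Cs) uses acetyl-CoA in mitochondria. Cs measured 315 ± 23.1 CPM in cocaine mice and 265 ± 17.4 CPM in saline mice, without overlap, at a log2 fold change of 0.26 ± 0.15. Pld2, a phospholipase D that frees choline from phosphatidylcholine, measured 6.32 ± 0.290 CPM in cocaine mice and 3.99 ± 0.312 CPM in saline mice, also without overlap, at 0.68 ± 0.35. Neither passed the test (adjusted p = 0.850 for both by edgeR).

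Other genes named by their p within a list were overlapping between groups. The acetyl-CoA synthetase Acss2 had a log2 fold change of 0.41 ± 0.23 for cocaine over yoked, and the choline kinase Chka −0.49 ± 0.25 for yoked over saline. The value of Chka was −0.23 without saline library 2, −0.32 without yoked library 2 and −0.071 without the 3 libraries of number 2. The choline transporter-like genes Slc44a5 and Slc44a2 had −1.24 ± 0.72 and −0.26 ± 0.28 for cocaine over yoked, and Slc44a2 turned to 0.069 without the libraries of number 2. Slc44a5 had −0.72 without cocaine library 2 and −2.10 without cocaine library 3.

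**Figure D5:**
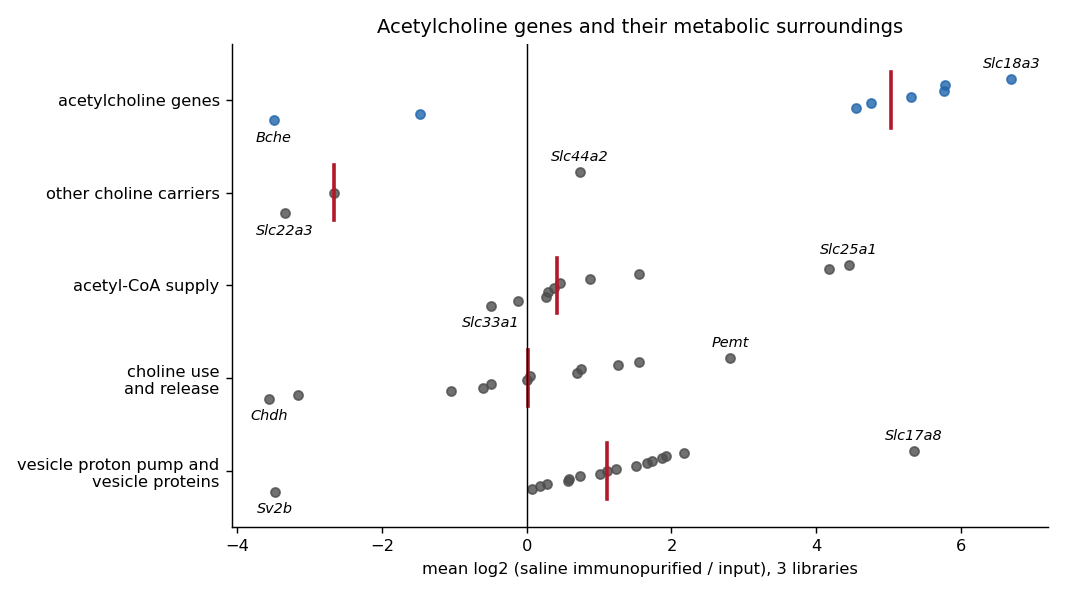
Mean log2 ratio to the input, over 3 purified saline libraries, of the 8 acetylcholine genes measured and of 42 genes of 4 surrounding lists; points are genes, red lines the list medians, and the labels mark the highest and lowest gene of a list. The medians are 5.03 for the acetylcholine genes and −2.66, 0.42, 0.020 and 1.11 for the lists from top to bottom.

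Against the input, 28 of the 42 measured genes of the 4 lists were higher in all 3 saline libraries and 9 lower, where 35.8% of all measured genes were higher. At least 4-fold higher in all 3 were 4 of the 42, where 3.62% of all measured genes were. Pemt is among the 28 and the 4, but had only 14 input reads and was measured only through its reads in purified RNA. The acetyl-CoA supply list had 10 genes with a median log2 ratio of 0.42. At its top stood 2 steps of the export of acetyl units from mitochondria as citrate, the citrate carrier Slc25a1 at 4.45 ± 0.13 and ATP citrate lyase (Acly) at 4.18 ± 0.41. Its lowest gene was Slc33a1, which carries acetyl-CoA into the endoplasmic reticulum, at −0.50 ± 0.037.

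The 12 genes of choline use and release had a median of 0.020. Highest was Pemt, which makes phosphatidylcholine by methylation, at 2.81 ± 0.65 (14 input reads, measured only through purified RNA). Its log2 ratio lay between 1.80 and 3.17 under the 6 alternatives run for that ratio. Lowest by the mean was the choline dehydrogenase Chdh at −3.56 ± 3.18 (195 input reads). That mean was set by saline library 2 at −7.23, against −1.57 and −1.87 in saline libraries 1 and 3. With reads pooled, Chdh was at −2.28 and Pld1 of the same list lower, at −3.04. Of the choline carriers only 3 could be measured, with Slc44a2 at 0.73 ± 0.42 as the highest and the organic cation transporter Slc22a3 at −3.34 ± 0.61 as the lowest. The 17 genes of the vesicle list had a median of 1.11. Slc17a8, the vesicular glutamate transporter VGLUT3, which cholinergic interneurons also use and which is among the 10 cholinergic markers above, was highest at 5.35 ± 0.16, and Sv2b, a synaptic vesicle glycoprotein, lowest at −3.49 ± 0.68.

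Reads of Slc18a3 and Chat cannot be told apart where their annotated exons would overlap, since the annotation and strand setting used for counting are not given in the sources used here. Neither is whether the transgene adds copies of Chat or Slc18a3 sequence to the genome.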

How the data were processed

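The authors deposited a table of whole-number counts for each library, with no scaling. Per the submitters' processing notes, the tools were STAR 2.0.0e and HTSeq on mm10; the annotation, strand setting and read filters are not given in the sources used here. Rows that name no gene were left out; ambiguous reads were 0.976% to 1.84% of reads in purified libraries and 4.49% in the input.

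Levels are CPM of gene-assigned reads, with SD over 3 libraries. The 3 groups were compared in 1 fit of 9 libraries (6 residual degrees of freedom) with edgeR 4.0.16 (R 4.3.3; quasi-likelihood F-test, robust, TMM scaling; filter at minimum count 10 and minimum total 15), with Benjamini-Hochberg adjustment over 14989 genes and a threshold of 0.05. DESeq2 1.42.0 was an alternative. Ratios to the input used genes with at least 20 counts. Counting intervals are exact at 95% and, like floors of 3 counts, cover counting error only, since the reads carry no molecular identifiers.

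The named genes are the 9 members, the 2 genes of each surrounding list with the smallest p (none was called), the highest and lowest ratio to the input of each list, and the 5 nearest genes of 4 members, some of which are not reported here; Acly was added after its value was seen. Members and lists were chosen with earlier results of these data known.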

Additional observations from a re-analysis of the deposited data

How the results depend on the processing

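Across 14 alternatives (other scaling, DESeq2, no filter on low counts, a replicate block, 1 library or the 3 libraries of number 2 left out), 0 of the acetylcholine genes were called in any comparison, and 6 stayed at least 4-fold above the input under all 6 alternatives run for that ratio. Without the filter, edgeR called 60 genes between cocaine and saline mice, 27 between cocaine and yoked mice, 18 between yoked and saline mice and 98 for any difference, of 22641 tested; 53, 24, 11 and 77 of these pass the filter, and the cause was not tested. Deviations of log2(CPM + 0.5) from the group mean correlated at 0.060 to 0.19 between same-numbered libraries of different groups, a hint from the data only. Between differently numbered libraries of different groups they correlated at −0.16 to 0.029. The deviations of a group sum to 0 for each gene, so positive same-numbered values lower the other values by construction. The gap between the 2 ranges is therefore no separate evidence of a link. With the replicate block 0 genes were called, and the log2 fold change of Slc44a1 for yoked over saline was 0.000308 (−0.023 without the block).

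Without the 3 libraries of number 2, a setting chosen after the data were seen, log2 fold changes turned sign to 0.033 (Slc18a3) and 0.0046 (Prima1) for cocaine over saline, −0.061 (Slc44a1) and 0.069 (Slc44a2) for cocaine over yoked, and 0.084 (Prima1) and 0.14 (Slc44a1) for yoked over saline. The causes were not tested. With 1 library left out at a time, directions turned within these ranges. For cocaine over saline they were −0.34 to 0.13 (Prima1), −0.20 to 0.013 (Slc10a4) and −0.10 to 0.24 (Slc44a1). For cocaine over yoked they were −0.21 to 0.076 (Slc5a7), −0.15 to 0.058 (Prima1), −0.092 to 0.16 (Slc10a4), −0.087 to 0.22 (Slc44a1) and −0.47 to 0.16 (Slc44a2). For yoked over saline they were −0.065 to 0.090 (Chat), −0.054 to 0.34 (Slc18a3), −0.40 to 0.067 (Ache), −0.59 to 1.05 (Bche), −0.31 to 0.15 (Prima1) and −0.13 to 0.16 (Slc44a1). Depth limits Bche and Colq: 3 reads correspond to 0.0399 to 0.122 CPM in purified libraries.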
